A study of Sus scrofa with 12 samples.

Results

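The sham control group of a study of newborn pigs (Sus scrofa) was described on its own, as the baseline transcriptome of tissue labelled striatum. Its members are the 6 libraries titled as Sham samples, of 12 samples in all, chosen by title and not by any measured value. This choice, and that of the gene lists used below, was made with earlier results of these data known. The 6 newborn piglets of this group were kept under anaesthesia with 4% isoflurane, and the labels give them no bypass, cooling, arrest or recovery period. The age in days, sex, breed and batch of the animals are not given in the labels, and all 6 share the anaesthetic, so none is an animal without treatment. The design text counts 6 piglets, so each library is taken as 1 animal. The other 6 samples, from piglets that underwent deep hypothermic circulatory arrest, were not used. The measurement was RNA sequencing of total RNA from whole pieces of tissue, counted per gene, and no contrast and no test were made.

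The striatum is the input nucleus of the basal ganglia and sits deep in the forebrain. Most of its neurons are inhibitory spiny projection neurons, which use GABA, receive glutamate from the cortex and thalamus, and are set by dopamine from the midbrain. Those of the direct pathway carry the dopamine receptor DRD1 and the peptides encoded by TAC1 and PDYN. Those of the indirect pathway carry DRD2, the adenosine receptor ADORA2A and enkephalin from PENK. A small number of interneurons, astrocytes, microglia, vessels and the myelinating oligodendrocytes of the crossing fibre bundles make up the rest.

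Levels are given as TPM, a length-corrected share of all transcripts, that is counts divided by the gene's summed exon length and scaled to the same total in each library. The libraries held 1377809 to 12933536 counts, and the shallowest were Sham 5 and Sham 1, the latter with 2515816. A floor of 3 counts stands for 0.232 CPM (counts scaled only to the library's total) in the deepest library and 2.18 in the shallowest, and covers counting error only. Sham 1 stood apart in composition. Thinned to the depth of the shallowest library it held 17396 genes with a count, against 15631 to 16088 in the other 5. Over 12270 genes with a mean of at least 5 TPM, Spearman's rho between libraries ran from 0.56 (Sham 1 and Sham 2) to 0.95 (Sham 3 and Sham 6), as a description across genes that share exon lengths and annotation. The library labelled Sham 4 went against its label. Its summed spiny projection neuron markers were 412 TPM against 4052 to 9182 in the other 5 libraries, and the cortical transporter gene SLC17A7 was at 676 TPM against at most 7.11. In the following, Sham 4 stands for the library so labelled. Some values that rest on it are given with and without it, and others only as means over all 6 libraries. Dividing by TMM or DESeq2 size factors in place of TPM moved the median of all genes per library by -0.16 to 0.23 in log2. Scaling to nuclear genes only moved it by 0.15 in Sham 1 and 0.65 in Sham 2, with the other libraries between. Differences of these sizes between libraries, and orders of libraries that rest on them, depend on the scaling.

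Mitochondrial and short structural RNAs took up much of the measured transcriptome, as the plot of RNA classes shows. The 2 ribosomal RNA genes of the mitochondrial chromosome, which have no symbol in the files and match ribosomal RNA intervals in RefSeq (Sscrofa11.1), held 16.8% ± 8.48 of TPM (SD, n = 6). The 13 protein-coding genes of that chromosome held 8.92% ± 3.12. The whole chromosome reached 10.4% in Sham 1 and 14.8% in Sham 5, against 27.3% to 36.9% in the other 4, so the 2 shallow libraries were also the 2 with the smallest share. Whether depth and this share are linked was not tested. The 22 transfer RNA genes of the chromosome, of which 4 had any count, reached 1.04% in Sham 1 and at most 0.139% elsewhere. They held 0.00733% of counts on average, and 1 of them, of 71 bases, had a mean of 2081 TPM.

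**Figure D1:**
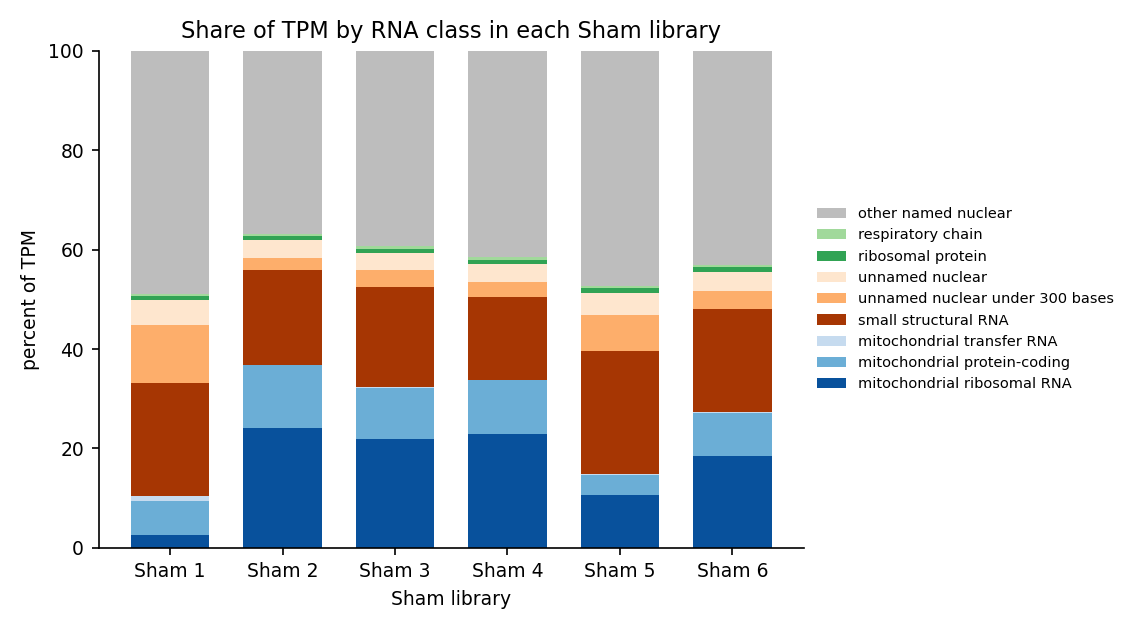
Percent of TPM (vertical axis) in 9 RNA classes for each of the 6 Sham libraries (horizontal axis), with 1 stacked bar per library. The mitochondrial classes together reach 10.4% in Sham 1 and 36.9% in Sham 2, and unnamed nuclear genes under 300 bases are largest in Sham 1.

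Small structural RNAs encoded in the nucleus (spliceosomal, nucleolar and similar RNAs, 1389 genes) held 20.7% ± 2.83 of TPM but only 2.55% ± 0.364 of counts, since division by a short length raises them. The most abundant of them was 7SK, a regulator of RNA polymerase II elongation, with 81169.5 ± 13386 TPM. It was followed by RNaseP_nuc, the RNA of the enzyme that trims transfer RNA precursors, with 70266 ± 20113 TPM. The range over the libraries was 65114 to 97733 TPM for 7SK and 44486 to 97594 TPM for RNaseP_nuc. Next came 5_8S_rRNA, a piece of the cytosolic ribosome, with 10012 ± 11038 TPM, and Metazoa_SRP, the RNA of the signal recognition particle, with 6479 ± 4422. The U2 spliceosomal RNA was at 2199 TPM in Sham 1 and 7898 to 15003 TPM elsewhere.

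An unnamed gene of 73 bases on chromosome 8 (ENSSSCG00000039029, 54238473 to 54238545) was the fifth most abundant of all, with no RefSeq gene over its interval. It ranged from 4926 TPM in Sham 2 to 96741 TPM in Sham 1, with a median of 23329. Another unnamed gene, ENSSSCG00000035520 on chromosome X (22068922 to 22069186), had 3.99 TPM in Sham 3, from 3 counts, and 2659.9 to 9925 TPM in the other 5 libraries. Unnamed nuclear genes under 300 bases as a class held 5.23% ± 3.58 of TPM, with 11.6% in Sham 1. Unnamed genes also held known messengers: ENSSSCG00000014540, over the RefSeq interval of the ferritin gene FTH1 on chromosome 2, had 1892 ± 419.5 TPM.

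A mean of at least 1 TPM was reached by 16694 of 25880 genes, and 13086 reached it in every library. A mean of at least 10 TPM was reached by 9501 genes. The 29 most abundant genes held 50% of TPM. Among nuclear genes of at least 300 bases without the small structural RNAs the same share took 1328 genes of 21833, so most of the concentration lay in mitochondrial and short RNAs. Genes of the cytosolic ribosome (63 ribosomal protein genes, 59 with a count) held 1.13% ± 0.231 of nuclear TPM. The 72 nuclear genes of the respiratory chain, here with ATP synthase (68 with a count), held 0.669% ± 0.130. Both sets were taken by symbol, so genes without a symbol are not in them. Both shares were lowest in Sham 1, at 0.711% and 0.476%.

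Several myelin genes were among the most abundant nuclear messenger RNAs. MBP, which compacts the myelin sheath, ranged from 1141 TPM in Sham 3 to 4776 in Sham 5, with a median of 2431. MAG, an adhesion molecule on the inner face of myelin, ranged from 501 TPM in Sham 6 to 2277 in Sham 1 with a median of 813. For MBP and MAG the 3 low libraries were Sham 3, Sham 4 and Sham 6, and the 3 high ones Sham 1, Sham 2 and Sham 5. An unnamed gene, ENSSSCG00000011267, which lies over the RefSeq interval of the myelin gene MOBP on chromosome 13, had 1768 to 10657 TPM, also lowest in Sham 3 and highest in Sham 1.

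Glial, neuronal and cytoskeletal genes reached similar levels, and CDR1 was above MAG by mean TPM. CDR1, whose locus is also read from the opposite strand and was counted without regard to strand, had 2112 ± 801 TPM, with 636 in Sham 1 and 1944 to 2840.3 in the other libraries. HEPACAM, a cell adhesion molecule of glia, had 432 TPM in Sham 3, 674 in Sham 6 and 6014 in Sham 1, and a median of 1561. SPARC, a secreted matrix protein, had 1832 ± 731 TPM, and the lowest library was Sham 4 with 899. The astrocyte-enriched lipid carriers CLU and APOE had 1427 ± 289 and 1157 ± 701 TPM, and APOE was lowest in Sham 2 (446) and highest in Sham 1 (2303). MT3, the metallothionein of the brain, had 1090.0 ± 251 TPM. CALM3, a calmodulin gene, is the name of 3 gene models, of which the highest had 1071 ± 294 TPM, and how reads were split between calmodulin copies was not tested. Among housekeeping and cytoskeletal genes UBB, a ubiquitin gene, had 1361 ± 181 TPM, ACTG1 had 1338 ± 213, ACTB had 983 ± 211 and TMSB4X, an actin-binding peptide gene, had 972 ± 74.6. Of these TMSB4X was the most even and stayed between 891 and 1100.1 TPM in all 6 libraries.

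Genes of spiny projection neurons were abundant in 5 of the 6 libraries and low in the sixth. The 28 of 30 list genes found in the table summed to 9182 TPM in Sham 1, 4052 in Sham 2, 6385 in Sham 3, 412 in Sham 4, 6278 in Sham 5 and 7275 in Sham 6. Sham 4 lay below all others for 27 of the 28 genes, with a median log2 difference of -3.46 from the median of the other 5. Over all 12270 genes from 5 TPM the same median was 0.01. Sham 4 was the lowest library for 10.7% of them and for 26 of the 27 spiny neuron genes from 5 TPM. The spread of a gene was called uneven where 1 library lay apart from the other 5 by Dixon's 95% value for 6 samples on log2(TPM + 0.5). This held for 16 of 27 spiny neuron genes from 5 TPM, beside 15.1% of all 12270 genes.

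PPP1R1B (DARPP-32, the inhibitor of protein phosphatase 1 that relays dopamine signals; chromosome 12, 22681041 to 22690612) had 2846 TPM in Sham 1, 1077 in Sham 2, 1767 in Sham 3, 17.2 in Sham 4, 1699 in Sham 5 and 2269 in Sham 6. Without Sham 4 its mean was 1932 ± 663 TPM (SD, n = 5). It held rank 33 of all genes by mean TPM. Cyclic nucleotide enzymes followed, with 523 ± 89.3 TPM for PDE1B, 286 ± 59.3 for PDE10A and 513 ± 143 for the adenylyl cyclase ADCY5 (SD, n = 5). In Sham 4 these 3 were at 32.4, 27.7 and 45.2 TPM, below every other library. The G protein subunits that couple dopamine and adenosine receptors to the cyclase, GNAL and GNG7, had 263 ± 49.4 and 628 ± 122 TPM without Sham 4. RGS9, which ends G protein signals, had 168 ± 44.5 TPM, and 4.39 in Sham 4. The same division held for ARPP21, a cyclic AMP-regulated phosphoprotein, with 129 ± 35.0 TPM against 31.9, for the sodium channel subunit SCN4B with 120.4 ± 42.9 against 4.66, and for the tyrosine phosphatase PTPN5 (STEP) with 82.7 ± 30.5 against 23.9. PCP4, a calmodulin-binding peptide that is on none of the lists and was singled out after its values were seen, had 31.6 TPM in Sham 4 and 786 to 1454 elsewhere. GPR6 and RASD2 carried no matching name in the table.

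Markers of the direct and indirect pathways were present side by side in the 5 other libraries. The 8 direct pathway genes summed to 486 ± 99.5 TPM and the 7 indirect pathway genes to 1133 ± 413 TPM without Sham 4, and to 112 and 90.2 in it. The indirect sum rests on PENK for most of its size. DRD1 had 123 to 221 TPM in the 5 libraries other than Sham 4, lowest in Sham 1 and highest in Sham 6. DRD2 had 45.8 to 158 TPM, lowest in Sham 2 and highest in Sham 1. The ratio of DRD1 to DRD2 was 0.777 in Sham 1, 1.16 in Sham 5, 1.78 in Sham 6, 1.92 in Sham 3 and 3.29 in Sham 2, so Sham 1 had more DRD2 than DRD1 and the other 4 the reverse. Both receptors were near the floor in Sham 4, with 8 and 2 counts.

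Enkephalin was the leading peptide. PENK had 741 ± 334 TPM without Sham 4, and 40.3 in Sham 4. The substance P gene TAC1 had 105 ± 38.1 TPM without Sham 4 and 6.16 in it. The dynorphin gene PDYN varied less, with 59.0 TPM in Sham 4 beside 59.6 in Sham 2 and 123 in Sham 3. PENK thus exceeded TAC1 in all 6 libraries, by a ratio of 3.51 to 18.6. ADORA2A had 169 ± 53.3 TPM and GPR52, a receptor of DRD2 neurons, 29.4 ± 10.7 TPM without Sham 4. The muscarinic receptor CHRM4 of the direct pathway ranged from 28.0 to 148 TPM in the 5 libraries and was at 1.94 in Sham 4. Other direct pathway genes were low: EBF1 had 7.48 ± 2.99 and ISL1 1.90 ± 1.02 TPM over 6 libraries, SFXN1 23.6 ± 6.93 and ZNF521 11.6 ± 1.86 TPM. Of the indirect pathway, GRIK3 had 36.3 ± 9.42, PTPRM 30.6 ± 6.59 and SP9 9.63 ± 5.49 TPM. All 7 indirect pathway genes were lowest in Sham 4, beside 10.7% of all genes from 5 TPM.

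The remaining receptors and effectors of dopamine signalling covered a wide range of levels. DRD3 had 24.2 ± 9.95 TPM without Sham 4, while DRD4 and DRD5 had 1.03 ± 1.49 and 1.33 ± 1.30 TPM over all 6. The cannabinoid receptor CNR1 had 147 ± 42.0 TPM with Sham 4 inside the range of the others, and the adenosine receptor ADORA1 had 35.6 ± 9.26. The opioid receptors had 28.9 ± 17.5 (OPRK1), 11.8 ± 7.71 (OPRD1) and 6.26 ± 2.77 TPM (OPRM1). The phosphodiesterase PDE2A had 211 ± 81.2 TPM and the G protein subunit GNB5 102 ± 18.9. The regulators of G protein signalling RGS2 and RGS4 had 17.9 ± 7.33 TPM and 2.81 to 11.3 TPM without Sham 4, where RGS4 was at 108. CHRM1 carried no matching name. RGS4 is thus a gene of this list that was highest in Sham 4, while 20 of the 23 genes from 5 TPM were lowest there, beside 10.7% of all genes. Of the 23 genes of this list from 5 TPM, 12 had 1 library apart, beside 15.1% of all genes.

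**Figure D2:**
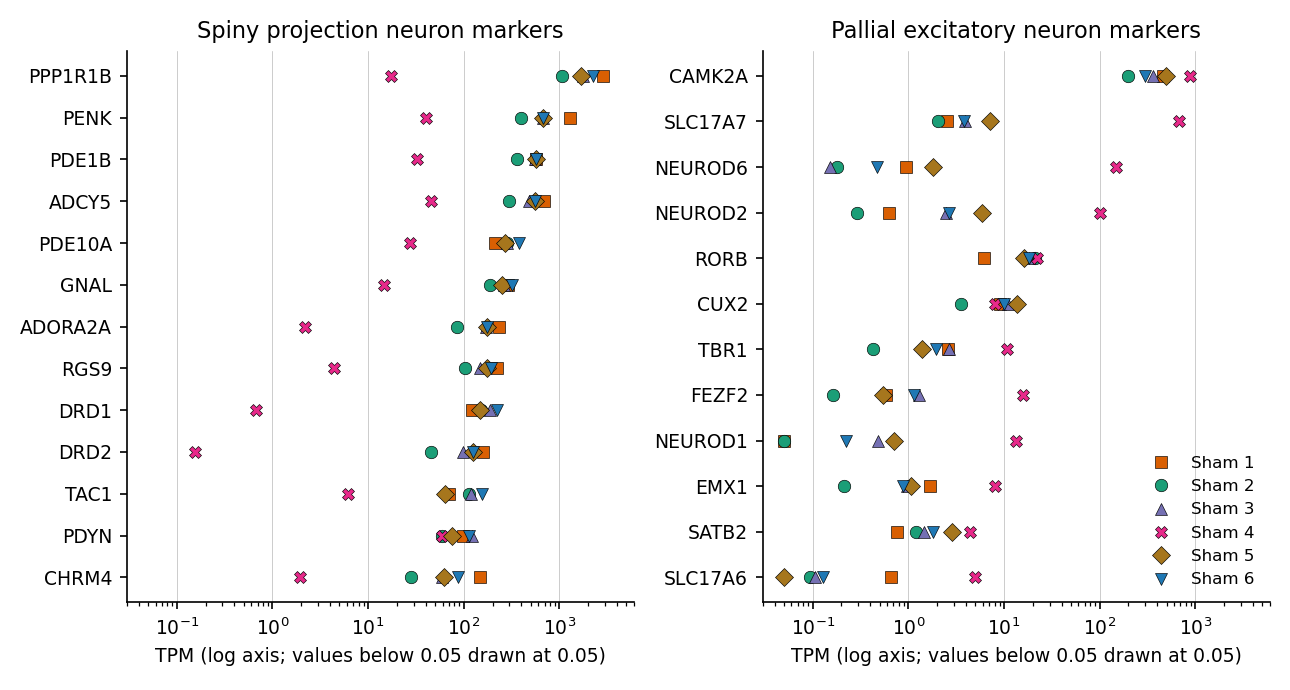
TPM (horizontal log axis, values below 0.05 drawn at 0.05) of spiny projection neuron markers (left) and pallial excitatory neuron markers (right), with 1 symbol per Sham library. Sham 4 lies below the other 5 libraries for PPP1R1B (17.2 against at least 1077) and above them for SLC17A7 (676 against at most 7.11).

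Genes of excitatory neurons of the pallium, the cortical part of the forebrain, showed the opposite order. SLC17A7 (chromosome 6, 54511126 to 54521616), the vesicular glutamate transporter of cortical neurons, had 2.52 TPM in Sham 1, 2.02 in Sham 2, 3.92 in Sham 3, 676 in Sham 4, 7.11 in Sham 5 and 3.83 in Sham 6. NEUROD6 and NEUROD2, transcription factors of cortical projection neurons, had 149.6 and 101 TPM in Sham 4 and at most 1.80 and 5.84 elsewhere. FEZF2, TBR1 and EMX1 had 15.7, 10.7 and 8.0 TPM in Sham 4 and at most 1.30, 2.68 and 1.69 in the other libraries. Sham 4 was the highest library for 10 of 13 pallial genes from 1 TPM. From 5 TPM it was the highest for 5 of 8, beside 18.7% of all genes from 5 TPM. The sum over the pallial list does not show this, with 2469 TPM in Sham 4 and 4556 in Sham 1, since 2 of its members make up most of it. These members, NRGN (1094 TPM median, a model of 261 bases) and CAMK2A (411 TPM median), are also made by spiny neurons and were high in every library. NRGN alone reached 4051 TPM in Sham 1. The thalamic transporter SLC17A6 had 5.01 TPM in Sham 4 and at most 0.656 elsewhere. Which tissue the library labelled Sham 4 came from was not tested.

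General neuron genes were present in all 6 libraries. The 15 list genes summed to 2506 TPM in Sham 2, the lowest, and 5355 in Sham 4, the highest. Without Sham 4 the mean sum was 3046 ± 369 TPM. Scaled within nuclear genes of at least 300 bases, the lowest library was Sham 5 and not Sham 2. SNAP25, of the vesicle fusion complex, had 500.2 ± 155 TPM, MAP2, a dendritic microtubule protein, 408 ± 110.3, and the neurofilament gene NEFL 391 ± 190.3. GABA neurons of all regions share the enzymes and transporters that make and store GABA. The GABA enzymes GAD1 and GAD2 had 164 ± 45.9 and 131 ± 45.8 TPM, with 112 and 44.4 in Sham 4. The vesicular GABA transporter SLC32A1 had 20.4 TPM in Sham 4 and 72.4 to 202 in the others. The GABA-B receptor GABBR1 had 465 ± 133 TPM.

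Interneuron genes were low beside the spiny neuron genes, with a sum of 253 ± 62.3 TPM over 15 genes. NPY and SST, peptides of 1 interneuron class, had 75.7 ± 30.3 and 67.5 ± 35.9 TPM, and NOS1, the neuronal nitric oxide synthase of the same class, 25.4 ± 6.75. The cholinergic genes CHAT, SLC18A3 and SLC5A7, which make, package and recycle acetylcholine, had 6.72 ± 1.82, 14.6 ± 3.17 and 11.9 ± 3.44 TPM without Sham 4. In Sham 4 CHAT was at 0.346 TPM and its regulator LHX8 had 0 counts, while CCK and CALB2 were at 69.3 and 25.4 TPM against at most 19.1 and 5.30 elsewhere. PVALB, the parvalbumin of fast-spiking cells, had 4.83 ± 2.09 TPM. TH, the dopamine synthesis enzyme of midbrain neurons, had 0.218 TPM on average with 3 counts at most, so it was at or under the floor in every library.

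Of the 24 forebrain transcription factors from 5 TPM, 14 were lowest in Sham 4, 6 in Sham 2 and 3 in Sham 1. Over all genes from 5 TPM these shares were 10.7%, 35.1% and 36.1%, so only the count for Sham 4 was above its share. Of the 24, 7 had 1 library apart, beside 15.1% of all genes. BCL11B and MEIS2, factors of spiny neurons, had 116 ± 64.9 and 112 ± 36.0 TPM without Sham 4, and 16.5 and 15.8 in it. FOXP1 had 75 ± 16 TPM without Sham 4, where it was at 25.5, and FOXP2 ranged from 1.01 to 18.4 TPM over all libraries. SIX3 had 14.3 to 51.6 TPM in 5 libraries and 0.126 in Sham 4. The cortical patterning factor NR2F1 was at 70.3 TPM in Sham 4 and 14.9 to 29.3 in the others.

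Genes of immature cells were detected in these newborns. The 13 genes of this list summed to 348 to 908 TPM, highest in Sham 4, and to 435 ± 92.8 TPM without Sham 4. The member with the highest mean was STMN2, a growth cone protein that older neurons also make, with 298 ± 223 TPM. STMN2 was at 739.6 TPM in Sham 4, which raises its mean and its part of the sum. DCX, a microtubule protein of migrating neuroblasts, ranged from 8.32 TPM in Sham 1 to 62.6 in Sham 6, with a median of 38.0. SOX11 and SOX4, factors of young neurons, ranged from 9.08 to 60.5 and from 11.8 to 56.9 TPM, both lowest in Sham 2. TOP2A, an enzyme of dividing cells, had 5.13 ± 2.55 TPM and EOMES, of cortical progenitors, 0.649 ± 0.680. IGFBPL1, a gene of young neurons, ranged from 2.98 TPM in Sham 1 to 36.0 in Sham 3, and FOXJ1, the regulator of motile cilia in ventricle-lining cells, was at 30.0 TPM in Sham 3 and 1.26 to 6.00 elsewhere. The ependymal list as a whole was highest in Sham 3 as well, at 113 TPM against 21.3 to 60.7. In bulk tissue, fewer cells of a type and less RNA per cell cannot be told apart.

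Oligodendrocyte genes varied more between libraries than astrocyte genes. The 15 astrocyte genes summed to 5624 ± 1093 TPM and the 13 oligodendrocyte genes to 12235 ± 6012 TPM (SD, n = 6). The median SD of log2(TPM + 0.5) over members was 0.49 for astrocyte and 0.93 for oligodendrocyte genes, beside 0.51 over all genes. GFAP, the intermediate filament of astrocytes, had 654 ± 272 TPM, the glutamate transporters SLC1A2 and SLC1A3 554 ± 116 and 294 ± 48.5, and glutamine synthetase (GLUL) 292 ± 68.5. SLC1A2 exceeded SLC1A3 in all 6 libraries, by a ratio of 1.57 to 2.12. The water channel AQP4 was at 48.5 TPM in Sham 1 and 173 to 283 elsewhere.

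Oligodendrocyte genes summed to 18866 TPM in Sham 2, 18755 in Sham 5, 14806 in Sham 1, 8856 in Sham 4, 6158 in Sham 6 and 5968 in Sham 3. Sham 2, Sham 5 and Sham 1 thus formed the upper 3, and the gap between Sham 1 and Sham 4 was wider than the range of the lower 3. CLDN11, a myelin tight junction gene, and MOG, on the outer myelin face, had 629 ± 320.3 and 681 ± 521 TPM. Precursor genes varied less, with a sum of 1084 ± 286 TPM over 12 genes. Of these PDGFRA, the growth factor receptor of precursors, had 89.2 ± 6.63 TPM with a log2 SD of 0.11, and GPR17, of cells about to myelinate, 137 ± 44.8 TPM.

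**Figure D3:**
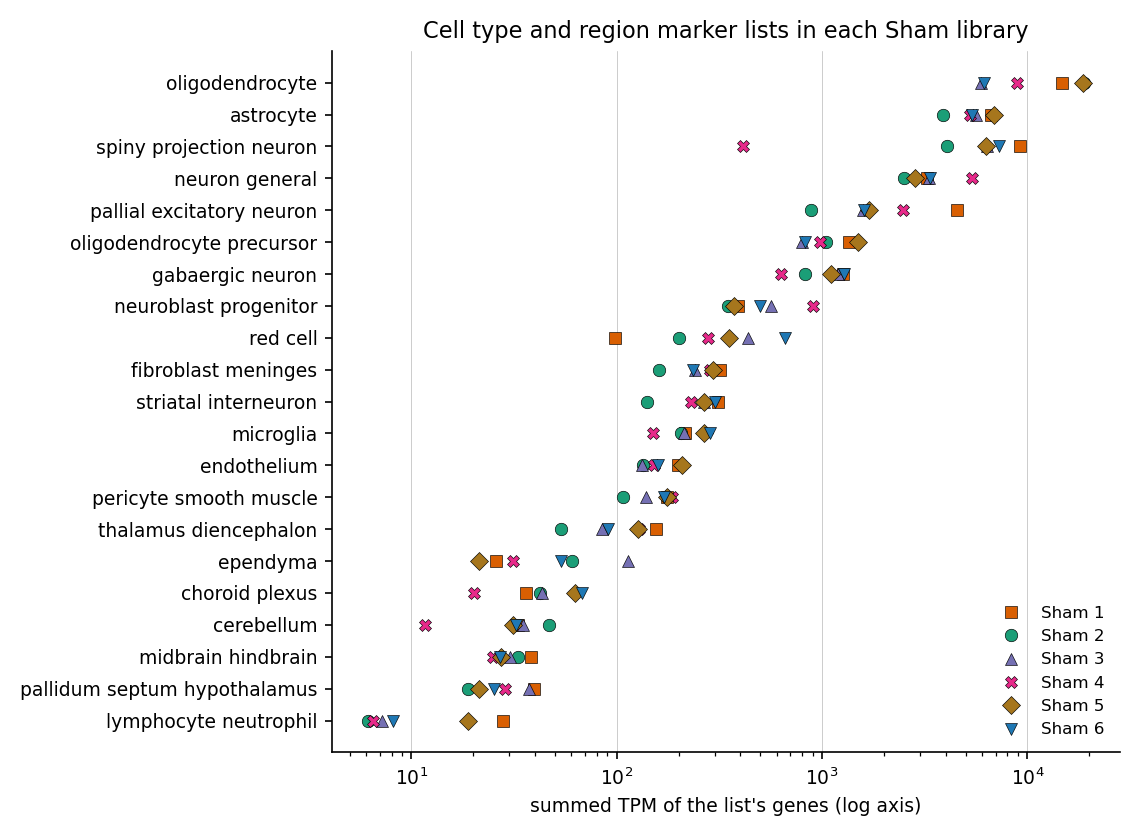
Summed TPM (horizontal log axis) of marker lists (rows), with 1 symbol per Sham library. The oligodendrocyte sums split into 3 higher libraries and 3 lower ones, and the spiny projection neuron sum of Sham 4 (412) lies apart from the other 5.

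Microglia, vessels and blood contributed at lower levels. The microglial genes summed to 222 ± 47.3 TPM, with CSF1R, the survival receptor of microglia, at 45.1 ± 23.7 and the complement genes C1QB and C1QC at 28.2 ± 9.48 and 23.5 ± 8.18. P2RY12 and CX3CR1, receptors of resting microglia, were at 3.42 and 5.54 TPM in Sham 1 and 16.4 to 34.4 and 16.4 to 33.9 elsewhere. Endothelial genes summed to 164 ± 32 TPM, led by FLT1 at 25.4 ± 4.15, and pericyte and muscle genes to 159 ± 30.0, led by RGS5 at 44.7 ± 18.7. Beta globin (HBB), a measure of blood in the tissue, had 89.5 TPM in Sham 1, 195 in Sham 2, 420.2 in Sham 3, 272 in Sham 4, 342 in Sham 5 and 645 in Sham 6. The highest library was 7.21 times the lowest, and Sham 6 had the most. EGFL7, an endothelial gene on an unplaced scaffold, is listed at 0 counts in all 6 libraries. Of 12 lymphocyte and neutrophil genes 3 reached 1 TPM on average and none 10 TPM, beside 16694 and 9501 of all 25880 genes.

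Genes of neighbouring structures were low. Of the choroid plexus list, TTR, the leading messenger of that tissue, had 3.45 ± 2.22 TPM and the water channel AQP1 0.270 ± 0.167. Its higher members, HTR2C at 16.7 ± 10.6 and FOLR1 at 15.8 ± 7.26, are also made outside the plexus. Meningeal and fibroblast genes summed to 256 ± 57.1 TPM, of which PDGFRA, shared with precursor cells, was the largest, and COL1A2 had 58.5 ± 18.6. Thalamic and diencephalic genes summed to 107 ± 36.8 TPM, led by LHX2 (39.3 ± 14.4) and TCF7L2 (26.9 ± 13.1), while 5 of 11 stayed under 1 TPM. Over all genes, 16694 of 25880 reached 1 TPM. The 14 genes of pallidum, septum and hypothalamus summed to 28.5 ± 8.48 TPM, with LHX6 at 11.4 ± 4.56 leading, and the 13 midbrain and hindbrain genes to 30.1 ± 4.79.

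Cerebellar GABRA6 had 0.129 ± 0.187 TPM. Calbindin (CALB1), on the cerebellar list but also a gene of matrix spiny neurons, had 20.6 to 40.3 TPM in 5 libraries and 0.117 in Sham 4, and it carried the cerebellar sum. In Sham 1 the hindbrain factor HOXA2 had 3.28 TPM, from 4 counts, and it had 0 counts in the other 5 libraries. Sham 1 also held the only counts of the embryonic globin HBE1, 4 of them. These genes are read beside the 1275 genes that at equal depth were seen in Sham 1 alone, against 151 to 268 for each other library. The Y-linked genes EIF1AY and KDM5D had 6.63 to 17.1 and 5.10 to 16.4 TPM, above 1 TPM in all 6 libraries.

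Subunits of the receptors for GABA and glutamate are exchanged as the brain matures. All 14 genes for GABA-A subunits and chloride transporters had a mean of at least 10 TPM, beside 9501 of all 25880 genes. Among alpha subunits GABRA2 and GABRA4 led with 82.1 ± 49.3 and 70.2 ± 40.5 TPM, before GABRA5 (34.8 ± 19.5) and GABRA3 (18.4 ± 14). GABRA4 and GABRD, partners in extrasynaptic receptors, were at 24.1 and 8.82 TPM in Sham 4, and GABRD was at 43.6 to 82.7 in the others. Of the beta subunits GABRB2 had 61.2 ± 26.5 and GABRB1 19.2 ± 14.3 TPM. Of the gamma subunits GABRG1 had 34.2 ± 13.1 and GABRG3 13.6 ± 7.30 TPM, the latter with 0 counts in Sham 1 and 10 in the shallower Sham 5. Sham 1 was the lowest library for 9 of these 14 genes and Sham 4 the highest for 7, beside 36.1% and 18.7% of all genes from 5 TPM.

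The potassium chloride exporter SLC12A5 (KCC2), which keeps chloride low in mature neurons, exceeded the importer SLC12A2 (NKCC1) in every library. SLC12A5 had 90.4 TPM in Sham 2, a median of 155 and 210.1 in Sham 1. SLC12A2 had 19.8 TPM in Sham 6, a median of 37.5 and 81.4 in Sham 2. Their ratio was 1.11 in Sham 2, 2.95 in Sham 4, 4.37 in Sham 5, 5.30 in Sham 3, 5.45 in Sham 1 and 8.24 in Sham 6. The ratio was thus smallest in Sham 2, where the oligodendrocyte sum was largest (18866 TPM). Sham 5, with a sum close to it (18755 TPM), had the ratio of 4.37. SLC12A2 is also made by glia. The part of glial RNA in it was not tested.

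**Figure D4:**
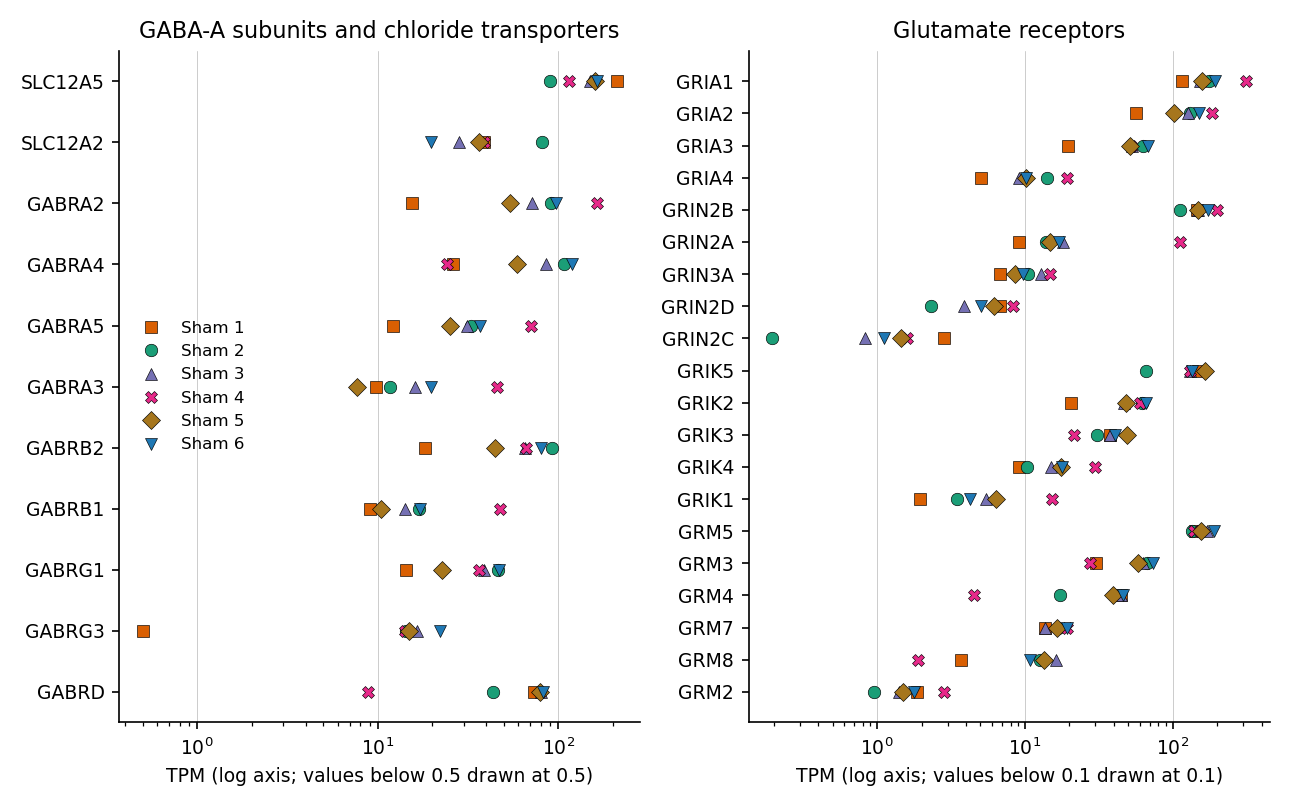
TPM (horizontal log axis) of GABA-A receptor subunits and chloride transporters (left, values below 0.5 drawn at 0.5) and of glutamate receptors (right, values below 0.1 drawn at 0.1), with 1 symbol per Sham library. SLC12A5 lies to the right of SLC12A2 in each library, and GRIN2A is highest in Sham 4 at 113 TPM against at most 18.2 elsewhere.

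Among AMPA receptor subunits, which carry fast excitation, GRIA1 and GRIA2 led with 185 ± 68.2 and 125 ± 44.0 TPM, before GRIA3 (51.1 ± 16.8) and GRIA4 (11.3 ± 4.87). The ratio of GRIA2, whose edited subunit blocks calcium entry, to GRIA1 was 0.485 to 0.819, below 1 in all 6. Of the NMDA receptor subunits GRIN2B, the form of the young brain, had 155 ± 28.8 TPM and GRIN2A, which gains with age, 14.7 ± 3.53 TPM without Sham 4. The ratio of GRIN2B to GRIN2A was 8.07 to 16 in 5 libraries and 1.76 in Sham 4, where GRIN2A was at 113 TPM. GRIN3A had 10.5 ± 2.90, GRIN2D 5.42 ± 2.16 and GRIN2C 1.34 ± 0.894 TPM. GRIN1, the subunit that every NMDA receptor needs, is listed at 0 counts in all 6 libraries, on an unplaced scaffold.

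Kainate receptor genes ranged from 6.13 ± 4.74 TPM (GRIK1) to 129.7 ± 33.9 (GRIK5), with 50.5 ± 16.6 for GRIK2 and 16.7 ± 7.49 for GRIK4. Of the metabotropic receptors GRM5, the main postsynaptic form of spiny neurons, led with 156 ± 22 TPM and a log2 SD of 0.20, and Sham 4 was inside the range of the others at 140.0. GRM3, mostly of glia, had 53.4 ± 19.5 TPM and GRM7 16.5 ± 2.55. GRM4 and GRM8 had 17.2 to 46.4 and 3.70 to 16.3 TPM in 5 libraries and 4.54 and 1.88 in Sham 4. GRM2 was at 1.72 ± 0.639 TPM.

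Secretory proteins and other peptides had their own order. The 25 genes found summed to 1889.6 ± 802 TPM, of which 14 reached 10 TPM, beside 9501 of all 25880 genes. After PENK, the granin CHGB had 351 ± 268 TPM, with 877 in Sham 1, and CHGA and VGF had 161 ± 134 and 107 ± 76.8. SCG5, SCG2 and SCG3 had 79.6 ± 44.0, 69.8 ± 34.0 and 44.7 ± 14.5 TPM. Neurotensin (NTS) had 20.2 to 78.5 TPM in 5 libraries and 0.408 in Sham 4. CARTPT, a peptide also of cortical neurons, was the reverse, with 176 TPM in Sham 4 and 3.11 to 9.60 elsewhere. The peptides of small cell groups were low. TAC3, GRP, CORT and VIP had means of 8.67, 5.82, 4.55 and 1.87 TPM, and GRP reached 31.0 in Sham 4. PNOC, TRH, IGF1, ADCYAP1 and CRH had means between 1.47 and 1.59 TPM, and NMB and GAL were below 1 TPM.

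Genes of growing neurites and of vesicle release were among the more abundant. Of the 25 cytoskeletal and growth genes found, 23 reached 10 TPM, beside 9501 of all 25880 genes. DPYSL2, a guidance protein of axons, had 646 ± 121 TPM, TMSB10, a thymosin of young neurons, 506 ± 155 and MAP1B, a microtubule protein of growing axons, 430.2 ± 204, with 841 in Sham 4. Of 22 vesicle release genes 21 reached 10 TPM, beside the same 9501 of 25880 genes. They were led by CPLX2, a clamp of the fusion complex, with 934 ± 243. SYT1, the calcium sensor of release, was at 653 TPM in Sham 4 and 201 to 303 elsewhere. Among imprinted genes NNAT had 375 ± 100.4 TPM, PEG10 265 ± 103, PEG3 219 ± 132 and NDN 113 ± 19.0, with PEG10 at 90.5 in Sham 4.

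Mitochondrial messenger RNAs were led by COX3 and COX1, subunits of cytochrome oxidase, with 17679.8 ± 8361 and 15487 ± 7794 TPM, then ATP6 of the ATP synthase with 12334 ± 6426. COX1 was at 3450.3 TPM in Sham 1, 8152 in Sham 5 and 17858 to 22570.5 in the other 4, so the 2 shallow libraries were the lowest. COX2 had 9017 ± 4281 TPM and CYTB, of the bc1 complex, 5134 ± 1717. Of the complex I subunits ND4 had 6026 ± 1909, ND5 5399 ± 2373, ND4L 5311 ± 3063, ND2 4012 ± 1499, ND3 2249.9 ± 870.2 and ND1 1857 ± 1001 TPM. Complex I genes did not follow COX1 in Sham 1. ND6, encoded on the opposite strand from the other protein-coding genes, had 11023 TPM in Sham 1 and 1520.2 to 4735 in the others, and ND4L had 10908 and 2436 to 5681. The ratio of ND6 to COX1 was 3.19 in Sham 1 and 0.142 to 0.210 elsewhere, and that of ND5 to COX1 was 2.63 against 0.204 to 0.298. The counting command sets no strand, so reads of ND6 and of RNA from the other strand cannot be told apart.

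ATP8 had 1615 TPM in Sham 3, from 1102 counts, and at most 1.73 TPM in the other 5 libraries. Its interval (8959 to 9162 on the mitochondrial chromosome) overlaps that of ATP6 (9120 to 9800), whose level in Sham 3 was 12381 TPM, inside the range of 4660.4 to 22198. How reads in the overlap were assigned in each library was not tested.

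Glycolytic genes had log2 SDs below the median of all genes in the leading members. ENO1 had 412 ± 119, PGAM1 317 ± 33.4, PKM 224 ± 45.5 and ALDOC 215 ± 41.9 TPM, all enzymes of glycolysis, with log2 SDs of 0.15 (PGAM1) to 0.40 (ENO1). TPI1, which every glycolytic cell needs, is listed at 0.448 TPM on average. Lactate dehydrogenase LDHB exceeded LDHA by a ratio of 6.45 to 10.8 in 5 libraries and 2.20 in Sham 4, where LDHA was at 124 TPM against 14 to 26.5. VEGFA, a hypoxia-inducible vessel growth factor, had 26.3 ± 15.6 TPM, with 55.7 in Sham 1, and CA9 and ADM had 4.77 ± 1.60 and 0.756 ± 0.168. PDK4, which diverts pyruvate from oxidation, ranged from 13.7 TPM in Sham 1 to 92.2 in Sham 6, with a median of 27.6.

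Activity-dependent genes were measured under anaesthesia. Of the 24 immediate early genes 13 reached 10 TPM on average, beside 9501 of all 25880 genes. JUN, a subunit of the AP-1 factor, ranged from 50.6 TPM to 443 in Sham 1, with a median of 75.2. FOS was at 65.2 TPM in Sham 1 and 3.14 to 11.3 elsewhere, and IER2 at 80.2 in Sham 1 and 2.12 to 7.18 elsewhere. EGR3, a zinc finger factor, had 54.4 ± 16.3 TPM, ARC 49.3 ± 24.6 and EGR1 45.5 ± 25.8. FOSL2 had 69.3 ± 8.65 TPM with a log2 SD of 0.18. BDNF was at 15.0 TPM in Sham 4 and at most 0.351 elsewhere. Cortical neurons are the known source of most striatal BDNF protein. JUNB is listed at 0 counts in all 6 libraries, and whether it was absent from the tissue was not tested. Sham 1 was the highest library for 9 of the 14 genes of this list from 5 TPM, beside 29.6% of all genes.

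Glucocorticoid-responsive genes were led by MT2A, a metallothionein, with 111 ± 22 TPM, TSC22D3 (GILZ) with 103 ± 32.5 and KLF9 with 94.5 ± 31.5. FKBP5, a chaperone of the glucocorticoid receptor, ranged from 10.5 TPM in Sham 3 through a median of 24.9 to 60.3 in Sham 6. The constitutive chaperone HSPA8 had 415 ± 97.0 TPM, HSPA5 of the endoplasmic reticulum 285 ± 54.6, and the cold-inducible RNA-binding proteins RBM3 and CIRBP 42.1 ± 10.8 and 42.8 ± 12.9. HSP90AA1 is listed at 0 counts in every library, and whether it was absent from the tissue was not tested. HSPA1A and HSPA1B carried no matching name.

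Between libraries, the median SD of log2(TPM + 0.5) over 12270 genes from 5 TPM was 0.51. The SD expected from counting error alone had a median of 0.14, below the observed median. The common biological coefficient of variation, the spread beyond counting error estimated by edgeR on the raw counts, was 0.376. Without Sham 1, Sham 4 and Sham 5 it was 0.245, and the median SD over the same genes in Sham 2, Sham 3 and Sham 6 was 0.29. Without Sham 4 alone the median SD was 0.51 again. Of the genes with 1 library apart, most had Sham 1 as that library: 1170 genes were low and 134 high in it, against 125 and 122 in Sham 4, 148 and 5 in Sham 2, 85 and 37 in Sham 5, 15 and 3 in Sham 3 and 1 and 9 in Sham 6.

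**Figure D5:**
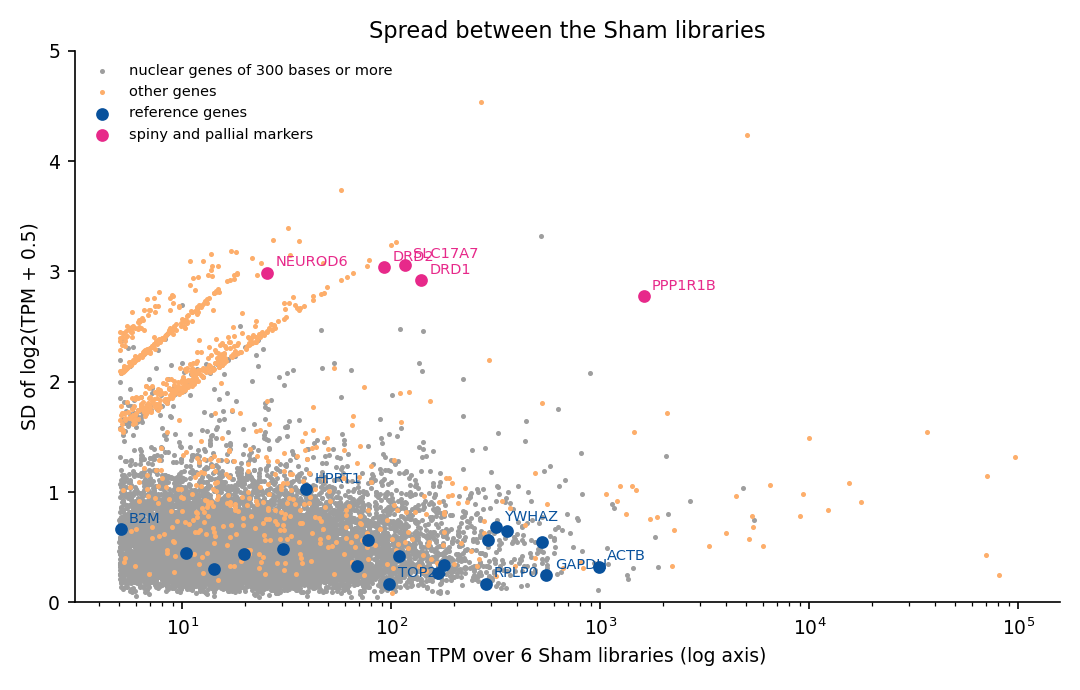
SD of log2(TPM + 0.5) over the 6 Sham libraries (vertical axis) against mean TPM (horizontal log axis) for 12270 genes with a mean of at least 5 TPM, 1 point per gene. The 19 reference genes (blue) lie between 0.17 and 1.02, and the labelled spiny and pallial markers (pink) lie higher, up to 3.06 for SLC17A7.

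Genes often used as references differed in evenness. Their SDs had a median of 0.43, against 0.51 for all genes. RPLP0, a ribosomal protein, and TOP2B, a DNA topoisomerase, had log2 SDs of 0.17 and 0.17, the smallest of the 19, at 282 ± 33.1 and 97.9 ± 11.7 TPM. GAPDH (552 ± 92.7 TPM), SDHA (166 ± 28.5), PPIB (14.2 ± 3.28), ACTB and POLR2A (68.3 ± 15.2) had SDs of 0.25 to 0.33. RPL4 (178 ± 36.7 TPM), PGK1 (108 ± 25.4), GUSB (10.4 ± 3.37) and TFRC (30.4 ± 10.03) had 0.34 to 0.49. In the next group Sham 1 was low for EEF1A1 and RPS18. EEF1A1 (523 ± 155 TPM) and RPS18 (289 ± 82.3) had 0.55 and 0.56. YWHAE (359 ± 122 TPM), YWHAZ (316 ± 119), B2M (5.07 ± 3.09) and HPRT1 (39.0 ± 25.5) varied most, from 0.65 to 1.02. HPRT1 was at 10.6 TPM in Sham 1 and 83.0 in Sham 4. PPIA, TBP and TUBA1A carried no matching name. Of the 19, 12 lay below the median SD of all genes from 5 TPM and 2 in its lowest 10%.

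The 10 most even named genes from 10 TPM held none of those references. PIK3R1, a regulatory subunit of PI3 kinase, stayed between 81.0 and 89.0 TPM, RPL38, a ribosomal protein, between 70.3 and 76.9, and HIVEP2, a zinc finger factor, between 61.5 and 67.8. SON, a splicing co-factor, stayed between 67.0 and 76.4 TPM, VPS11, of endosome fusion, between 37.6 and 42.7, and ARF6, a small GTPase, between 25.0 and 28.1. BDP1, DNAJB11, PHAX and PANK1 completed the 10, with log2 SDs of 0.05 to 0.07. PHAX had Sham 4 apart from the rest all the same, at 19.9 TPM against 21.9 to 23. Among the 10 with the largest SD were ATP8, at 4.53, and 8 short RNAs (SCARNA1, U5, Six3os1_1, a U4 copy, SNORD49, a U6 copy, SNORD113 and ssc-mir-4335), each of the 8 with 0 counts in at least 1 library and at most 245 in any.

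Each library also had genes at which it stood alone. Short RNAs with few counts held many of the places that the naming rule gives, so the genes that follow were taken from those of at least 300 bases with the largest distance from the nearest other library, a limit set after their values were seen. Sham 1 was highest for BMP2K, a kinase of endocytosis, at 316 TPM against 23.6 to 39.6, for COL9A3, a collagen of myelinating glia, at 179 against at most 34.5, and for SOX17, of vessels, at 44.6 against at most 6.07. It had 0 counts of SLIRP, which binds mitochondrial RNA, where the others had 15.9 to 25.1 TPM and the shallower Sham 5 had 5 counts. It had 0 counts of the repair gene ERCC8 against 24 in Sham 5, and 1 of the zinc transporter SLC39A12 against 27. Sham 2 was highest for OMG, a myelin glycoprotein, at 204 TPM against at most 91.3, and for ICAM1, an adhesion molecule of activated vessels, at 30.2 against at most 13.3. It was lowest for COL1A1, a fibrous collagen, at 7.63 TPM against at least 25.0.

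Sham 4 was highest, beside the pallial genes above, for ST6GALNAC5 at 89.7 TPM against at most 4.57 and for NRN1, a neurite growth factor, at 82.9 against at most 4.19. It had 0 counts of SLC35D3, a transporter of spiny neurons, where the others had 23.7 to 34.4 TPM. Sham 5 was highest for CD74, the invariant chain of antigen presentation, at 52.7 TPM against at most 11.4, and for DISC1 at 38.5 against at most 18.7. Sham 6 was highest for ETNPPL, an astrocyte enzyme, at 85.9 TPM against at most 38.2, and for RELN, an extracellular guidance protein, at 138 against at most 81.3. It was lowest for PRR5L at 11.5 TPM against at least 19.8. Sham 3 was highest for VIM, an intermediate filament of glia and progenitors, at 94.4 TPM against at most 65.5.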

How the data were processed

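Total RNA from tissue labelled striatum of newborn piglets was sequenced with an Illumina TruSeq kit, per the labels' protocols. No label names a selection of messenger RNA or a removal of ribosomal RNA. The deposited values are raw read counts per gene, which the authors made with featureCounts 1.5.1 over the exons of each gene on Sscrofa11.1 with no strand option, per the file headers. Reads of overlapping or antisense genes can therefore not be told apart, and close copies of a gene can share reads. Reads were aligned with a tool not given in the sources used here. DESeq2, featureCounts and Sscrofa11.1 appear in the submitters' processing notes. Of 18 count columns 6 matched no sample and were not used. Of 25880 genes 15926 took their symbol from the authors' deposited table, 1523 from a reference table of gene IDs, and 8431 had none.

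TPM was computed from the counts and the deposited gene length, with no filter. Spread was the SD of log2(TPM + 0.5) over genes with a mean of at least 5 TPM (genes named for their spread: at least 10 TPM). The biological coefficient of variation came from edgeR 4.0.16 with TMM factors and an intercept only. DESeq2 1.42.0 size factors were an alternative, and no differential test was run with either. For counts of detected genes each library was thinned to 1377809 counts. R 4.3.3, Python 3.11.15, numpy 2.4.6, pandas 2.3.3 and matplotlib 3.10.9 were used, and the spread measures were tested on simulated data. Values are means ± SD over 6 animals, or over 5 where Sham 4 is left out, and totals of 1377809 to 12933536 counts set its precision.

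The libraries and the 37 gene lists (507 symbols, 471 of them found) were chosen with earlier results of these data known. Named genes were the 30 most abundant nuclear genes with a name in the authors' table, mitochondrial protein-coding genes, up to 5 leading members of each list with members that were low or at 0, all members of 7 lists (references, receptors, peptides, dopamine signalling, spiny pathways), the 10 most and the 10 least even genes, and per library the 5 farthest above and 3 farthest below the others. Short RNAs among them, and members that add nothing to those printed, are given as counts or ranges. Some genes that this rule takes in are not reported here. Alternatives were leaving out libraries, other scalings, units, pseudocounts and filters, thinning, medians, nuclear genes only, and, chosen after seeing the data, a minimum of 300 bases and the pallial list without NRGN. Gene positions are those of the count table.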

Additional observations from a re-analysis of the deposited data

Results flagged for a closer look

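Each value here is from a library that stood apart from the other 5. Its gap to the nearest of them took up more of the whole range than Dixon's 95% value for 6 samples. Genes and lists were read on the log2(TPM + 0.5) scale, and RNA classes as plain percent of TPM. Chance alone marks about 1 in 20 groups, and over all 12270 genes from 5 TPM the share was 15.1%. Of 253 genes named above with a mean of at least 5 TPM, 61 had such a library, but many were named because of this very spread. Of 37 gene lists 7 had one, and of 9 RNA classes 2.

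The library labelled Sham 4 was low for the spiny neuron list (412 TPM), its direct pathway (112) and indirect pathway members (90.2) and the dopamine signalling list (742). The cerebellar list was low there too (11.6), through CALB1 (0.117). Among receptors it was low for DRD1 (0.680 TPM), DRD2 (0.153), ADORA2A (2.19) and the GABA-A subunit GABRD (8.82). Among signalling genes it was low for PPP1R1B (17.2 TPM), ADCY5 (45.2), PDE1B (32.4), PDE10A (27.7), GNAL (14.7), GNG7 (86.7), RGS9 (4.39), PCP4 (31.6) and the sodium channel subunit SCN4B (4.66).

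The peptide genes PENK (40.3 TPM), TAC1 (6.16) and NTS (0.408) were low there as well. So were the GABA enzyme GAD2 (44.4 TPM), the transporter SLC35D3 (0), the factor SIX3 (0.126) and the cholinergic genes CHAT (0.346), SLC18A3 (1.93) and LHX8 (0). PEG10 (90.5 TPM) and PHAX (19.9) complete the genes named as low there. The same library was high for the cortical genes SLC17A7 (676 TPM) and NEUROD6 (149.6), for CARTPT (176), ST6GALNAC5 (89.7) and NRN1 (82.9), and for RGS4 (108), GRIN2A (113) and LDHA (124). It was also high for SYT1 (653 TPM), MAP1B (841) and SCG5 (168). Which tissue it holds was not tested.

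Sham 1 was low for the reference gene list (3266 TPM), the heat shock and cold list (1282) and ribosomal protein genes as a class (0.637% of TPM), and high for mitochondrial transfer RNA (1.04%). The single reference genes low in it were EEF1A1 (237 TPM), RPL4 (111), RPS18 (124) and PGK1 (58.4). Among glial genes it was low for AQP4 (48.5 TPM), P2RY12 (3.42) and SLC39A12 (0.314), and among receptor subunits for GRIA3 (19.7), GRIK2 (20.5) and GABRG3 (0). CDR1 (636 TPM), UBB (1012), U2 (2199), SLIRP (0) and ERCC8 (0) were low in it too. It was high for BMP2K (316 TPM), IER2 (80.2), SOX17 (44.6) and NEFL (769.7). Its depth was 2515816 counts, and whether depth bears on these values was not tested.

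Sham 2 was low for COL1A2 (25.2 TPM), GRIK5 (65.8), LHX2 (12.5) and NOS1 (12.1). Sham 3 was high for ATP8 (1615 TPM) and low for ENSSSCG00000035520 (3.99).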

How the results depend on the processing

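Of 111 combinations of a result and an alternative, 96 stayed within a set limit and 15 moved past it. For shares the limit was the SD between libraries. For counts of genes, the median SD and the coefficient of variation it was a factor of 1.5. The number of genes that hold 50% of TPM, 29 here, was 18 without Sham 1 and Sham 5, 17 without Sham 1, Sham 4 and Sham 5, 767 with CPM in place of TPM, 348 over nuclear genes and 1328 over nuclear genes of at least 300 bases. With CPM the mitochondrial share was 13.2%, the ribosomal protein share 0.727% and the respiratory chain share 0.406%. Over nuclear genes of at least 300 bases those of ribosomal protein, respiratory chain and spiny neuron genes were 1.75%, 1.04% and 1.16%. Here the totals changed by construction. The pallial share, 0.279% of nuclear TPM, was 0.10% without NRGN. Without Sham 1 and Sham 5 the median SD was 0.314. Without Sham 1, Sham 4 and Sham 5 it was 0.287, and the coefficient of variation was 0.245. The length minimum and the removal of NRGN were chosen after seeing the data.

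With 1 library left out in turn, the genes from 1 TPM numbered 16257 to 16817 and those that hold 50% of TPM 22 to 38. The mitochondrial share was 23.7% to 29.0%, the ribosomal protein share 1.08% to 1.22%, the respiratory chain share 0.649% to 0.707%, the spiny neuron share 0.677% to 0.870% and the pallial share 0.233% to 0.307%. The median SD was 0.383 to 0.556 and the coefficient of variation 0.30 to 0.407. No paired analysis was possible because 1 group was described and no test was made. Levels near the floor of Sham 5 (2.18 CPM) rest on few counts.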

Other observations

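Apart from the markers of Sham 4, the genes of at least 300 bases with the widest spread over the other 5 libraries held several that split the libraries into a high and a low set. They were picked out after their values were seen, and no test was made of them. MX2, ZBP1 and BST2, each known to respond to interferon, were higher in Sham 1, Sham 5 and Sham 6 than in the other 3, and no list of such genes was examined. MX2, which blocks viruses, had 68.3, 46.2 and 51.3 TPM in these 3 and 6.19 to 7.94 in the other 3. ZBP1, a sensor of foreign nucleic acid, had 81.3, 36.3 and 19.1 TPM in these 3 and 3.82 to 4.78 in the rest. BST2, which tethers virus particles, had 53.0, 22.7 and 9.56 TPM against 1.69 to 3.85. Sham 1 and Sham 5 are also the 2 shallow libraries, while Sham 6 is the deepest, with 12933536 counts. The part of depth in these values was not tested.

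Other genes divided the libraries differently. GPX1, a peroxidase that removes hydrogen peroxide, had 132, 114 and 69.0 TPM in Sham 2, Sham 4 and Sham 5 and 8.14 to 14 in the other 3. PRR18 was at 57.2 and 60.5 TPM in Sham 1 and Sham 5 and 6.31 to 7.80 elsewhere. HAPLN2, a link protein of the myelinated node, was at 35.7 and 26.3 TPM in the same libraries and 2.65 to 7.88 elsewhere. Sham 2, which had the largest oligodendrocyte sum, was in the low set for both genes. SAL1, named for a salivary lipocalin of pigs, ranged from 3.99 TPM in Sham 1 to 78.7 in Sham 5.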
